A study of Homo sapiens with 9 samples.

Results

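Kyse150 cells carrying a short hairpin RNA against KDM2A were compared with Kyse150 cells carrying a control hairpin, in 4 of the 9 libraries of the series. The groups were taken from the sample titles and genotype labels: 2 control libraries (shNC, genotype Control) and 2 knockdown libraries (shKDM2A, genotype KDM2A knockdown). Kyse150 is an established human esophageal squamous cell carcinoma line, and all 4 libraries came from cells grown in RPMI 1640 with fetal bovine serum, into which a hairpin had been carried by lentivirus. The other 5 libraries come from the line TE11 and were not used here. All 57820 genes of the Kyse150 count table were considered, of which 23949 held at least 1 count and 14060 held enough counts to be tested. The labels name no further hairpin against KDM2A, no clone and no time after infection, so effects of the hairpin other than less KDM2A cannot be told apart from those of less KDM2A. They speak of 3 independent replicates without saying what was repeated, and 2 per group are present here. Each p-value thus rests only on how far the 2 libraries of a group differ, in the gene itself and, by pooling, in other genes. That spread may be technical.

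KDM2A is a histone demethylase that removes methyl groups from lysine residues of histone H3, mainly at H3K36. Its zinc finger CXXC domain binds unmethylated CpG, which places the protein at CpG island promoters, the promoters of most housekeeping genes and of many developmental regulators. The comparison asks which transcripts differ when the KDM2A transcript is lower, in single genes, in families grouped by role, and in classes defined by promoter sequence, level and location.

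Counts assigned to genes came to 7167055 and 7036676 in the controls and to 6655571 and 6052883 in the knockdowns. Levels are given in CPM, the counts of a gene scaled to a common library total and corrected for library composition. Across 11390 protein-coding genes log levels correlated at 0.9932 between the controls, at 0.9925 between the knockdowns and at 0.956 to 0.963 between groups, a description across genes that are not independent replicates. KDM2A (ENSG00000173120) stood at 172 and 175 CPM in the controls and 107 and 104 CPM in the knockdowns, so that both knockdowns lay below both controls. It fell to 0.611 of the control level (log2 -0.71, SE 0.07; edgeR adjusted p = 3.87e-09).

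Of the 14060 genes tested, 48.2% were called, as 3490 rose (24.8%) and 3281 fell (23.3%) in the knockdowns at an edgeR adjusted p under 0.05, with 2 libraries against 2. Among these, 1074 rose at least 2-fold (7.64% of the genes tested) and 290 fell to 0.5 of the control or less (2.06%). Every count of genes below is to be read against these shares. The share called lower also differed with level, from 5.50% of genes under 2 CPM to 40.8% from 100 to 300 CPM and 48.0% at 300 CPM or more. Level was not held fixed in the counts of families, so its part in them was not tested. The 2 controls and 2 knockdowns did not overlap for 73.3% of all genes tested, so a lack of overlap on its own sets few genes apart. Because the cells were measured in bulk, fewer cells expressing a gene and less RNA per cell cannot be told apart.

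The 12 largest rises among called genes with a mean of at least 10 CPM were in KRT81, GDF15, IL1B, NGFR, NDRG1, PNRC1, SLC52A1, NOL4L, GNE, IL1A, NECTIN4 and KLHL24. KRT81, a keratin of the hair shaft, had 3.4 and 2.33 CPM in the controls and 58 and 62.1 CPM in the knockdowns. This 20.8-fold rise had an edgeR adjusted p of 8.77e-17 (log2 4.38, SE 0.18). GDF15 encodes a stress-induced cytokine of the TGF-beta superfamily. It went from 2.41 and 3.5 CPM to 47.2 and 46.7 CPM, a 15.9-fold rise (log2 SE 0.19). NDRG1, a gene known to respond to low oxygen and to differentiation, was at 37 and 41.7 CPM in the controls and 299 and 282 CPM in the knockdowns, 7.4-fold higher (log2 SE 0.08). NGFR, the low-affinity neurotrophin receptor, moved from 3.12 and 4.08 CPM to 33.1 and 30.6 CPM. SLC52A1, a riboflavin transporter, had 4.81 and 4.81 CPM in the controls against 27.7 and 27.3 CPM. GNE, which makes the precursor of sialic acid, had 3.68 and 4.08 CPM against 23.5 and 17.8 CPM. The rises of PNRC1, NOL4L, NECTIN4 and KLHL24 were 4.64-fold to 6.05-fold, and IL1B and IL1A are described with the interleukins. In each of the 12 genes both knockdowns lay above both controls.

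The 12 largest falls by the same rule were in LFNG, FLG, SRSF6, NCOA5, DKK1, SLC30A1, GEN1, ZNF703, IBA57, SMC2, TOE1 and SOX9. LFNG, a glycosyltransferase that modifies Notch receptors, had 20.5 and 19.7 CPM in the controls and 2.68 and 2.1 CPM in the knockdowns, and fell to 0.12 of control (log2 SE 0.24). FLG encodes filaggrin, a protein of the cornified layer of stratified epithelium. Its level was 53 and 52.2 CPM in the controls and 10.4 and 10.8 CPM in the knockdowns, and an antisense gene overlaps it, from which its reads cannot be told apart. DKK1, a secreted antagonist of WNT signalling, went from 169 and 165 CPM to 44.1 and 50.8 CPM, to 0.284 of control (log2 SE 0.08; edgeR adjusted p = 9.05e-16). SLC30A1 exports zinc from the cell and went from 40.5 and 41.2 CPM to 13.1 and 11.8 CPM. SOX9, a transcription factor of progenitor cells, had 72.9 and 59.7 CPM in the controls and 23.8 and 23.9 CPM in the knockdowns. GEN1, a resolvase of DNA recombination, had 23.4 and 20.4 CPM against 4.92 and 8.57 CPM, and its knockdowns lay farther apart by ratio than those of the other 11 falls. Both knockdowns lay below both controls in each of the 12 genes.

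**Figure D1:**
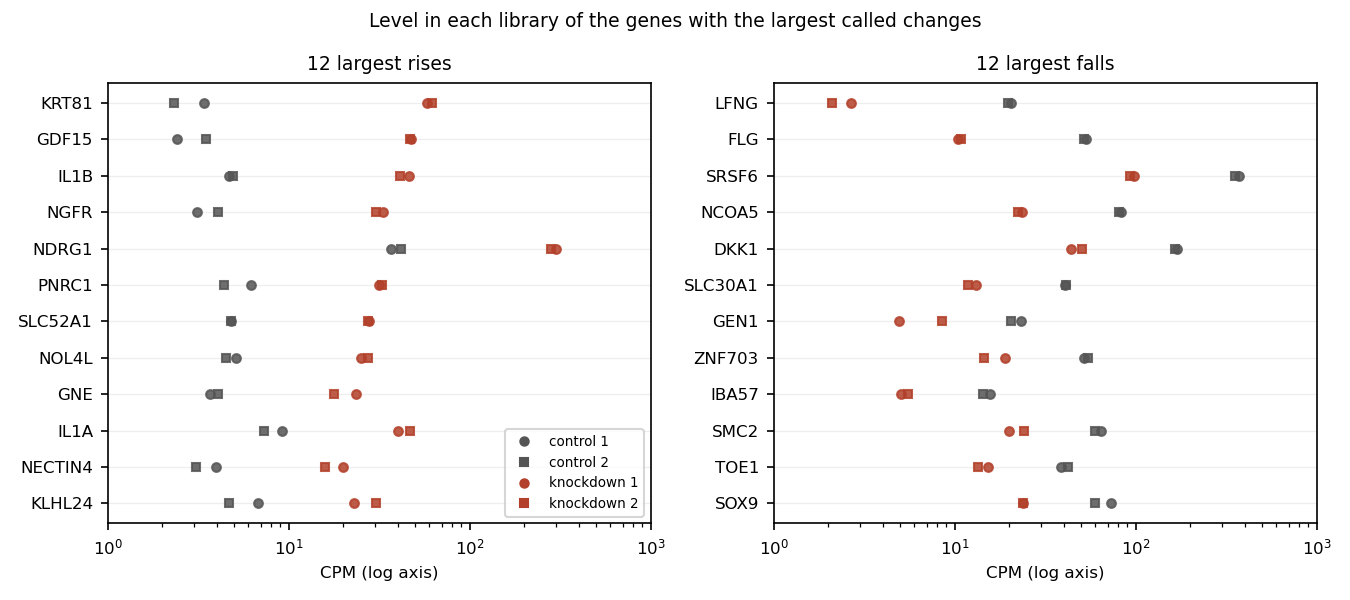
Level in each library of the 12 largest rises (left) and the 12 largest falls (right), in CPM on a log axis, with controls in grey and knockdowns in red. For each gene the 2 controls and the 2 knockdowns form separate pairs, from KRT81 with controls under 4 CPM and knockdowns above 55 CPM to SOX9 with knockdowns near 24 CPM.

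The upstream sequences of 3 genes are shown because they differ widely in CpG content. They are the 250 bases before the RefSeq start site of IL1B (ENSG00000125538), FLG (ENSG00000143631) and SRSF6 (ENSG00000124193), on the strand of the gene, with every CG in capitals. The build is GRCh38.p14.
IL1B, chr2:112836780-112837029, reverse strand: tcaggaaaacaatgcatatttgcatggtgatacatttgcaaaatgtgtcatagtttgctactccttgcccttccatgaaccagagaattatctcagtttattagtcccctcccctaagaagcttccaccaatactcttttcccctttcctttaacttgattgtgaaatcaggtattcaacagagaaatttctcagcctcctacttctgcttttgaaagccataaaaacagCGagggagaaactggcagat
FLG, chr1:152325240-152325489, reverse strand: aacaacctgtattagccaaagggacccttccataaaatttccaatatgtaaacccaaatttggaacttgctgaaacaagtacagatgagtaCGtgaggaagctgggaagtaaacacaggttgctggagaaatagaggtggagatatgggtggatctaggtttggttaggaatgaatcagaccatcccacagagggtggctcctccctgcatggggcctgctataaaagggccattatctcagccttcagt
SRSF6, chr20:43457646-43457895, forward strand: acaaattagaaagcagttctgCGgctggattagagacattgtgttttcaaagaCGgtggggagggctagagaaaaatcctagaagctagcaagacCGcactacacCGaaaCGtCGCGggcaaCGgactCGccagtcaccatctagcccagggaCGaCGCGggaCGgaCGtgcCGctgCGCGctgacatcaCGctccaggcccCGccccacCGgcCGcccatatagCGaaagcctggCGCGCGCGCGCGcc
The printed bases hold 1 CG in IL1B, 1 in FLG and 28 in SRSF6. Over the whole window of 300 bases, which runs 50 bases past the start, the observed number of CG divided by the number that the C and G content would give was 0.155 in IL1B, 0.0644 in FLG and 1.12 in SRSF6. IL1B rose, whereas FLG and SRSF6 fell, so low CpG content stood beside a rise in IL1B and a fall in FLG.

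Over the 9191 tested protein-coding genes with such a window, 26.1% rose and 26.3% fell, and the shares differed with the CpG content of the promoter, which is given as a description with no test. With an observed-to-expected ratio under 0.25, 163 of 445 genes rose (36.6%) and 70 fell (15.7%). Between 0.25 and 0.5, 228 of 598 rose (38.1%) and 77 fell (12.9%). Between 0.5 and 0.75, 483 of 1723 rose (28.03%) and 372 fell (21.6%). At 0.75 and above, which takes in most housekeeping promoters, 1529 of 6425 rose (23.8%) and 1900 fell (29.6%). The median log2 fold change went from 0.17 and 0.22 in the 2 classes with the lowest ratios to -0.05 in the class with the highest.

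The level of a gene moved with both its promoter class and the share called lower, so the classes were also compared within levels. Among genes at 50 CPM or more, 38.2% of the 102 genes with a ratio under 0.25 rose and 30.4% fell, against 21.2% and 41.5% of the 2769 genes with a ratio of 0.75 or more. Among genes from 10 to 50 CPM the shares were 34.4% and 19.5% in the lowest class of 154 genes, against 25.0% and 24.6% in the highest class of 2745 genes. Under 10 CPM 37.6% of 189 genes rose and 4.76% fell in the lowest class, against 28.1% and 8.56% of 911 genes in the highest. Some genes of this band could pass the filter on low counts through the knockdowns alone, so its shares are a description. The G+C content of the transcript also moved with the fold change, as described with the other classes below. With fold changes corrected for transcript G+C, the shares were 36.6% and 17.1% in the lowest promoter class and 25.0% and 31.0% in the highest. DESeq2 called fewer genes in every class, 22.9% higher and 10.8% lower in the lowest and 15.1% and 21.3% in the highest.

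The proteasome, which degrades ubiquitin-tagged proteins, fell in both of its parts. Of the 20 tested subunits of the 19S regulatory particle, which recognises and unfolds substrates, 17 fell and 0 rose, with a median log2 fold change of -0.46 against 0.00232 over all genes tested. Of the 13 subunits of the 20S catalytic core 9 fell and 0 rose (median -0.32). PSMD12, a lid subunit, had 124 and 111 CPM in the controls and 60.5 and 58.2 CPM in the knockdowns, and fell to 0.506 of control (log2 SE 0.09; edgeR adjusted p = 3.55e-10). PSMD1, the largest base subunit, had 181 and 175 CPM against 111 and 112 CPM. PSMC1, an ATPase of the base, had 212 and 212 CPM against 139 and 137 CPM. In all 3 the knockdowns lay together below the controls. Among core subunits PSMA4 went from 169 and 151 CPM to 99.7 and 99.95 CPM and PSMA7 from 305 and 319.5 CPM to 206 and 223 CPM. The 19S members that were not called were PSMD4, PSMD9 and PSMD13.

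Chaperones fell as well, with exceptions. In the list of heat shock, J-domain and chaperonin genes 32 of 64 tested members fell and 15 rose. HSPA8, the constitutive HSP70 of the cytosol, went from 2598 and 2763 CPM to 1415 and 1431 CPM, to 0.531 of control (log2 SE 0.05). HSP90AB1, the constitutive HSP90, went from 1941 and 1974 CPM to 1194 and 1184 CPM, and CCT6A, a subunit of the chaperonin that folds actin and tubulin, from 623 and 622 CPM to 361 and 385 CPM. DNAJA1, a co-chaperone of HSP70, fell to 0.51 of control. HSPA1B, an inducible HSP70, moved the other way, from 64.1 and 61.9 CPM to 110.4 and 102 CPM. HSPA1B has a near-identical neighbour in HSPA1A, so its counts are uncertain.

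Lysosomal genes moved opposite to the proteasome. Of 43 tested hydrolases and membrane proteins of the lysosome, 29 rose and 3 fell, with a median log2 fold change of 0.46. PSAP, the precursor of the saposins that activate sphingolipid hydrolases, had 281 and 286 CPM in the controls and 532 and 517 CPM in the knockdowns, a 1.85-fold rise (log2 SE 0.06; edgeR adjusted p = 3.51e-13). GRN, which encodes progranulin, went from 147 and 156 CPM to 256 and 239 CPM. The cysteine proteases CTSH and CTSB went from 39.6 and 41.5 CPM to 83.2 and 80.4 CPM and from 90.5 and 101 CPM to 164 and 147 CPM. These knockdown values all exceed both controls. GALNS, a sulfatase, went the other way, from 30.2 and 28.1 CPM to 18.6 and 15.4 CPM, as did PPT1, which removes palmitate from proteins, and MCOLN1, the calcium channel of the lysosome, whose call DESeq2 did not make (adjusted p = 0.211).

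**Figure D2:**
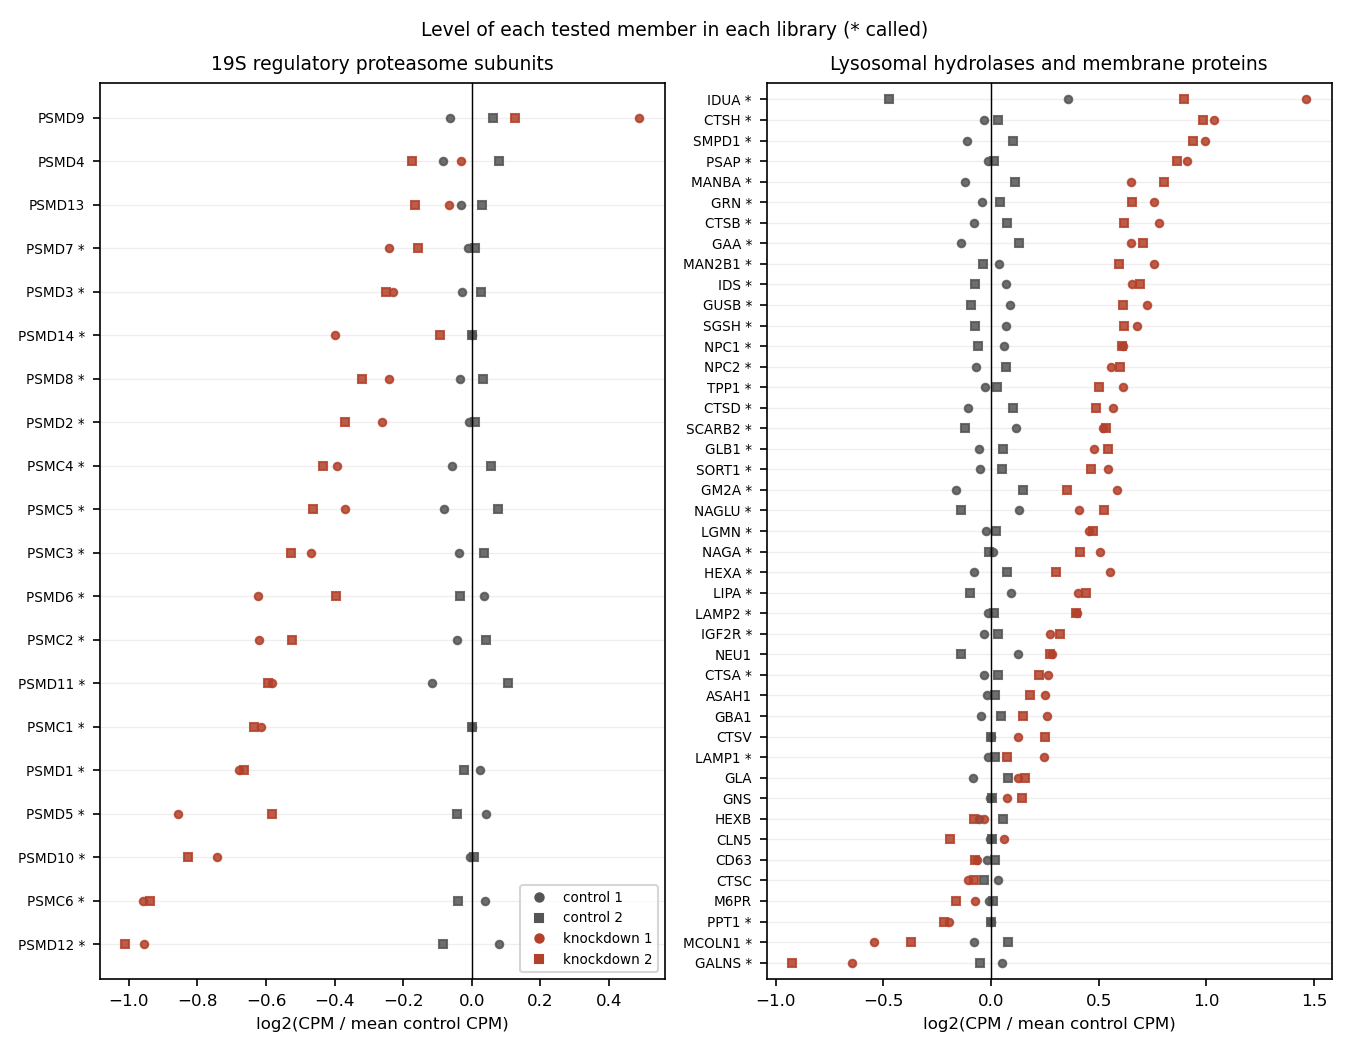
Level of each tested 19S proteasome subunit (left) and lysosomal gene (right) in each library, as log2 of CPM over the mean of the 2 controls, with controls in grey, knockdowns in red and an asterisk on genes that were called. Most red points of the proteasome panel lie to the left of the controls, with 17 of 20 genes called lower, and most of the lysosome panel to the right, with 29 of 43 called higher.

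The proton pump that acidifies the lysosome did not share this pattern, since 4 of 20 V-ATPase genes rose and 3 fell. ATP6V1F rose from 56.6 and 69.9 CPM to 96.1 and 84.9 CPM, while ATP6V1C1 fell from 51.1 and 53.6 CPM to 33.8 and 34.5 CPM. In the autophagy machinery 14 of 37 genes rose and 5 fell. GABARAPL1, a ubiquitin-like protein of the autophagosome membrane, went from 20.7 and 21.1 CPM to 83.2 and 79.4 CPM, 3.89-fold higher (log2 SE 0.11; edgeR adjusted p = 2.9e-14). Among cargo receptors of autophagy, NBR1 went from 51.1 and 53 CPM to 98.4 and 113 CPM, SQSTM1 from 516 and 517 CPM to 778 and 748 CPM, and OPTN from 31.6 and 30.2 CPM to 59.6 and 63.1 CPM. ATG3, the enzyme that attaches these ubiquitin-like proteins to lipid, fell to 0.763 of control.

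The palindrome CACGTG, which is bound by the lysosomal regulator TFEB among many factors of its class, was looked for in the promoter windows of lysosomal genes. It was present in 9 of 29 windows (31.0%), against 10.3% of the windows of tested protein-coding genes and 7.43% of all RefSeq windows. Of the 9 genes with it 5 rose and 2 fell, and of the 20 without it 15 rose and 1 fell. CTSD, which encodes the aspartic protease cathepsin D, is shown as a member with 1 match that rose, and GALNS as a member with 2 matches that fell, with 1 match in capitals in each.
CTSD, chr11:1763958-1763985, reverse strand: ccggccgcgccCACGTGaccggtccggg
GALNS, chr16:88857105-88857132, reverse strand: aggcaccgcgtCACGTGacccgccgctg

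A further 5 motifs searched on both strands of the windows were the antioxidant response element bound by NRF2 (TGAC and GCA with 3 bases of any kind between them), the E2F site of cell cycle genes (TTTNNCGC), the interferon-stimulated response element (GAAA and GAAA, 2 bases apart), the kB site (GGG and TTTCC, 2 bases apart) and the sterol regulatory element (TCACNCCAC). The antioxidant element was present in 4 of 19 windows of 19S proteasome genes (21.1%), against 2.74% of the windows of tested protein-coding genes. Of the 4 genes with it 3 fell, and of the 15 without it 14 fell. Over all tested protein-coding genes with a window, 20.0% of the 1005 genes with the E2F letters were called higher and 33.5% lower, against 26.9% and 25.4% of the genes without them. For the CACGTG palindrome these shares were 20.8% and 31.6% of 946 genes with it. The genes with the antioxidant element were called higher in 31.35% and lower in 25.8% of 252, and those with the interferon element in 24.8% and 26.1% of 230. For the kB site they were 29.02% and 25.4% of 193 genes, and for the sterol element 29.8% and 25.5% of 94. These shares are descriptions, and G+C content of the genes was not held fixed in them.
Over all 9191 coding genes with a window, 20.8% of the 946 with the palindrome rose and 31.6% fell, against 26.8% and 25.7% of those without it. A match is a description of the letters and not of binding.

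Splicing factors and nuclear transport fell in most members. Of 75 tested proteins of the spliceosome and of heterogeneous ribonucleoproteins, which package and splice pre-mRNA, 55 fell and 2 rose (median log2 fold change -0.48). SRSF6, a serine- and arginine-rich splicing regulator, had 372 and 355 CPM in the controls and 97.9 and 92.7 CPM in the knockdowns, and fell to 0.262 of control (log2 SE 0.07; edgeR adjusted p = 1.78e-18). SRSF2 and SRSF3 of the same family went from 458 and 459 CPM to 200.3 and 221 CPM and from 321 and 307 CPM to 156 and 158 CPM. HNRNPM, an RNA-binding splicing regulator, went from 446 and 438 CPM to 218 and 206 CPM. Each of these 4 genes showed a wider gap between the groups than between replicates. The 2 members that rose were PRPF40B (1.44-fold) and SNRPD2 (1.13-fold), of which DESeq2 did not call SNRPD2.

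The nuclear pore and the transport factors that pass through it moved the same way. Of 28 nuclear pore proteins 24 fell and 0 rose. RANBP2, on the cytoplasmic face of the pore, had 69.8 and 60.8 CPM against 26.8 and 36.6 CPM, and NUP62, of the central channel, had 134 and 132 CPM against 89 and 80.1 CPM. Of 23 importins and exportins 14 fell and 2 rose. KPNA2 and KPNB1, which form the classical import receptor, went from 336 and 317 CPM to 193 and 213 CPM and from 566 and 541 CPM to 359 and 380.1 CPM. XPOT, the exportin of tRNA, rose slightly, from 313 and 320.3 CPM to 349 and 365 CPM (1.13-fold, log2 SE 0.06), which DESeq2 did not call.

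Condensins, cohesins and lamins, which shape chromosomes and the nuclear envelope, fell in 25 of 30 members, and 1 member rose. SMC2, a core subunit of condensin, went from 64.7 and 59.9 CPM to 19.97 and 24.3 CPM. LMNB1 and LMNA, the lamins B1 and A, went from 285 and 283 CPM to 153 and 151 CPM and from 617 and 629 CPM to 441 and 429 CPM. Lamin B1 thus fell to 0.535 of control and lamin A to 0.698. TMPO, which binds lamins, went from 394 and 341 CPM to 207 and 219 CPM. EMD, which encodes emerin of the inner nuclear membrane, was the member that rose, from 89.5 and 82.6 CPM to 108 and 111 CPM.

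In protein synthesis the counts varied between the parts. The large and small subunit proteins of the cytosolic ribosome were mixed, with 15 of 80 rising and 22 falling (median log2 fold change -0.02), and with upper-quartile scaling 20 rose and 19 fell. RPS26 went from 261 and 271 CPM to 183 and 173 CPM and RPL7 from 982 and 916 CPM to 723 and 729 CPM, while RPL3 and RPL12 rose 1.24-fold and 1.26-fold. Many ribosomal protein genes have processed pseudogenes of nearly the same sequence, so their counts are uncertain. In contrast, 40 of 75 proteins of the mitochondrial ribosome fell and 1 rose (median -0.31). MRPS34 went from 219 and 246 CPM to 144 and 137 CPM and MRPL27 from 67.8 and 67.6 CPM to 32.8 and 37.2 CPM, to 0.516 of control (log2 SE 0.10). Enzymes that modify and trim tRNA fell in 28 of 43 members and rose in 1. TRMT61A and TRMT6, the 2 subunits of a tRNA methyltransferase, went from 87.8 and 88.2 CPM to 46.1 and 41.1 CPM and from 77.6 and 72.3 CPM to 40.4 and 42.5 CPM. The 28 falls became 16 with DESeq2 and 18 without the first knockdown library.

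Initiation factors fell in 19 of 39 members and rose in 5. EIF4G2, a translation regulator related to the scaffold EIF4G1, went from 1174 and 1136 CPM to 636 and 672 CPM, and EIF4G1 from 1534 and 1578 CPM to 989 and 929 CPM. EIF1AX, which takes part in start codon scanning, fell to 0.488 of control (log2 SE 0.08). EIF4EBP1, the repressor of cap-dependent initiation that mTORC1 inactivates, rose from 101 and 102 CPM to 159 and 158 CPM, 1.57-fold (log2 SE 0.07). RNA polymerase II fell in 8 of 12 subunits and rose in 2, with its catalytic subunit POLR2A going from 762 and 842 CPM to 525 and 498 CPM. RNA polymerases I and III fell in 9 of 19 subunits and rose in 1. Nucleotide synthesis fell in 10 of 13 pyrimidine genes with 0 rising, and in 8 of 15 purine genes with 1 rising. TYMS, which makes thymidylate, went from 186 and 178 CPM to 116 and 119 CPM, and UMPS, which makes uridine monophosphate, from 74.6 and 72.1 CPM to 41 and 40.8 CPM. ADSS1, the purine gene that rose, had 1.7 and 1.17 CPM in the controls and 9.09 and 6.15 CPM in the knockdowns. Without the knockdowns it could not pass the filter on low counts, so its rise is a description.

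The cytosolic aminoacyl-tRNA synthetases, which load amino acids onto tRNA, split into genes that rose and genes that fell. Of 22 tested synthetases and partner proteins 9 rose, 8 fell and 5 were not called. AARS1, for alanine, had 309 and 326 CPM in the controls and 493 and 473 CPM in the knockdowns, 1.52-fold higher (log2 SE 0.06; edgeR adjusted p = 9.58e-10). WARS1, for tryptophan, went from 138 and 142 CPM to 227 and 228 CPM. GARS1, for glycine, went from 289.7 and 279.6 CPM to 430.1 and 424 CPM, and SARS1, for serine, from 159 and 170.3 CPM to 247 and 244 CPM. These 4 genes rose by similar factors, 1.49-fold to 1.62-fold. TARS1, for threonine, fell from 214 and 207 CPM to 145 and 149.6 CPM. AIMP2, a scaffold of the multisynthetase complex, fell from 111 and 120.1 CPM to 64.7 and 73.6 CPM, to 0.597 of control (log2 SE 0.08). AIMP1, the other scaffold protein of this list, also fell (0.652 of control). Among the 17 mitochondrial synthetases 2 rose and 5 fell.

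The C/EBP-ATF response element, a composite site bound by ATF4 with a C/EBP partner and known from amino acid synthesis genes, was searched for as TGATGNAA on either strand of the promoter windows. It was found in 6 of 18 windows of cytosolic synthetases (33.3%) and in 4 of 17 windows of amino acid transporters (23.5%), against 1.64% of the windows of tested protein-coding genes and 3.67% of all RefSeq windows. The matches in synthetase genes are shown because 4 of the 6 genes rose and 1 fell. The match is in capitals, on the strand of the gene.
AARS1, chr16:70289675-70289704, reverse strand: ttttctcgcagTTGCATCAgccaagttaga
CARS1, chr11:3057407-3057436, reverse strand: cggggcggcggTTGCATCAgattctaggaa
MARS1, chr12:57488053-57488082, forward strand: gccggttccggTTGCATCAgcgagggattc
IARS1, chr9:92293692-92293721, reverse strand: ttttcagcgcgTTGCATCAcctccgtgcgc
TARS1, chr5:33440956-33440985, forward strand: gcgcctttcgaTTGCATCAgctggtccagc
NARS1, chr18:57621804-57621833, reverse strand: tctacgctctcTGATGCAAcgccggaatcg
AARS1, CARS1, MARS1, IARS1 and TARS1 hold the same 8 letters, TTGCATCA, yet TARS1 fell and the other 4 rose. NARS1, for asparagine, holds them on the opposite strand and was not called (log2 fold change -0.11, edgeR adjusted p = 0.184). Of the 12 synthetase windows without a match 4 genes rose and 5 fell. Over all 9191 windows 27.8% of the 151 genes with a match rose and 18.5% fell, against 26.1% and 26.4% of those without.

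Transporters that bring amino acids into the cell rose more often than they fell, with 10 of 20 higher and 4 lower (median log2 fold change 0.21). SLC6A6, the taurine transporter, had 66.7 and 70.5 CPM in the controls and 175 and 161 CPM in the knockdowns, 2.46-fold higher (log2 SE 0.08; edgeR adjusted p = 1.94e-13). SLC38A2, a transporter of small neutral amino acids, went from 158 and 139 CPM to 268 and 306 CPM, and SLC1A4, for alanine, serine and cysteine, from 21.7 and 17.9 CPM to 46.9 and 49.2 CPM. SLC3A2, the heavy chain shared by several heterodimeric transporters, rose 1.45-fold. SLC38A5 fell from 149.7 and 158 CPM to 102 and 103 CPM and SLC43A2 from 21.8 and 22.9 CPM to 13.3 and 11.3 CPM. In the 2 transporter genes with a matched element that rose, SLC3A2 and SLC1A3, the stretches read as follows.
SLC3A2, chr11:62881725-62881748, forward strand: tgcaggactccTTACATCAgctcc
SLC1A3, chr5:36596357-36596386, forward strand: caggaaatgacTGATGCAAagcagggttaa
SLC7A1 and SLC38A1 also held a match and were not called.

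**Figure D3:**
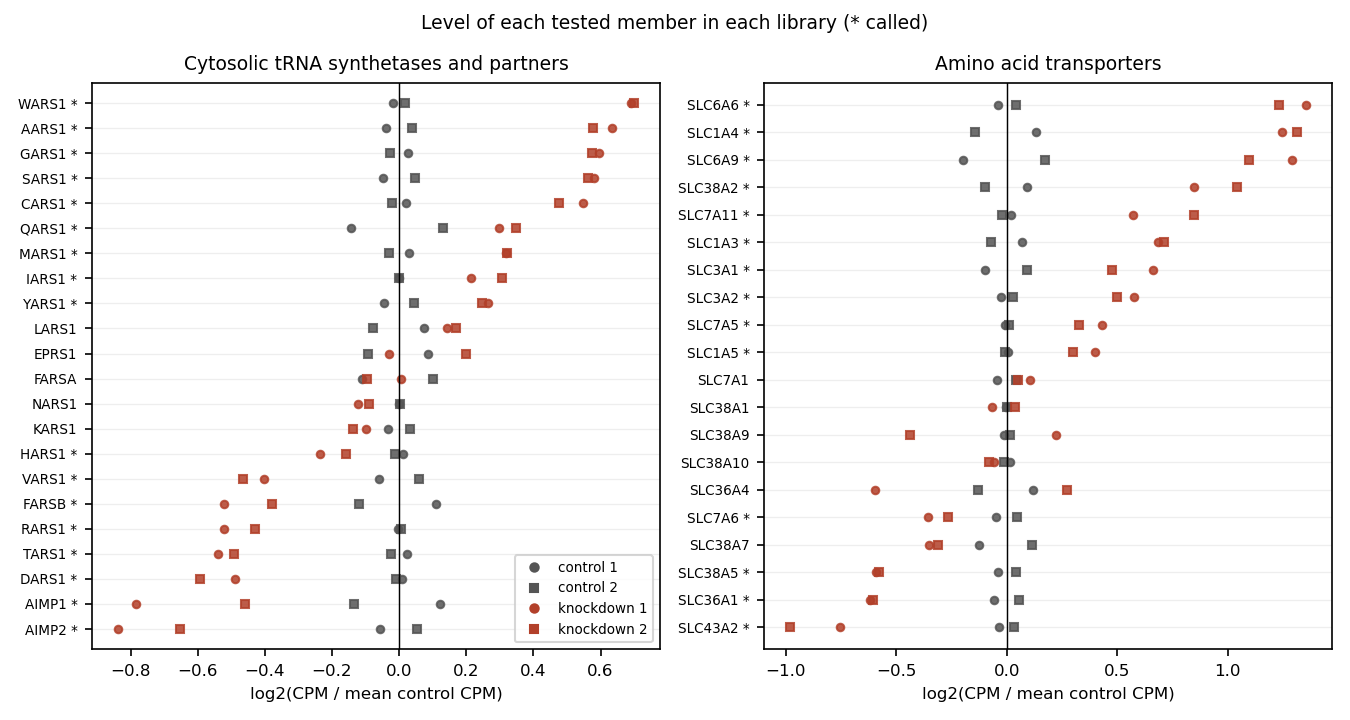
Level of each tested cytosolic synthetase or partner protein (left) and amino acid transporter (right) in each library, as log2 of CPM over the mean of the 2 controls, with controls in grey, knockdowns in red and an asterisk on genes that were called. The synthetases fan out from AIMP2 at a log2 fold change of -0.74 to WARS1 at 0.70, with both knockdown points of each called gene on the same side of the controls.

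Sugar and monocarboxylate carriers rose in 9 of 15 members and fell in 1. SLC2A3, the high-affinity glucose transporter GLUT3, had 44.3 and 40.4 CPM in the controls and 157 and 144 CPM in the knockdowns, 3.55-fold higher (log2 SE 0.09; edgeR adjusted p = 1.37e-15). SLC2A12 went from 4.53 and 3.5 CPM to 14 and 14.1 CPM. SLC16A1, the lactate carrier MCT1, was the member that fell, from 234 and 218 CPM to 174 and 196 CPM. The citrate cycle was mixed, with 4 of 25 genes rising and 8 falling, as IDH2 rose 1.77-fold and IDH3A fell to 0.649 of control.

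In the secretory pathway genes of the entry side fell more often than all genes tested and genes of the vesicle side less often, a difference that was not tested. Of 25 genes of the translocon and signal peptidase, which pass new proteins into the endoplasmic reticulum, 13 fell and 0 rose. SRP9, a subunit of the signal recognition particle, went from 150.2 and 127 CPM to 78.7 and 85.6 CPM. The 13 falls became 8 without the first knockdown library. Of 34 genes of the COPI and COPII coats and cargo receptors, which carry proteins between the endoplasmic reticulum and the Golgi, 11 rose and 2 fell. These are 32.4% higher and 5.88% lower, against 24.8% and 23.3% of all genes tested, with a median log2 fold change of 0.08. With DESeq2 7 of the 34 rose. SEC24D, a cargo-binding COPII subunit, went from 25.2 and 22.6 CPM to 48.7 and 50.1 CPM, and KDELR3, a retrieval receptor, from 13.2 and 15.4 CPM to 27.6 and 30.1 CPM. Enzymes of N-glycan assembly fell in 15 of 36 members and rose in 5. Enzymes of O-glycosylation with mucins moved the other way, rising in 13 of 20 and falling in 3. GALNT10, which starts O-glycans, went from 81 and 76.6 CPM to 129 and 128 CPM, and the mucins MUC16 and MUC1 went from 9.77 and 10.5 CPM to 20.7 and 24.6 CPM and from 1.13 and 1.6 CPM to 5.96 and 6.47 CPM. Without the knockdowns MUC1 could not pass the filter on low counts, so its rise is a description.

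Keratins, the intermediate filaments of epithelial cells, rose in 10 of 13 tested members and fell in 2 (median log2 fold change 0.80). Besides KRT81, the basal keratin KRT14 went from 16.4 and 17.5 CPM to 49.5 and 50.8 CPM, 2.95-fold higher (log2 SE 0.13; edgeR adjusted p = 7.82e-11). KRT17, a keratin of activated keratinocytes, went from 19.1 and 24.3 CPM to 52 and 48.5 CPM. KRT18, a keratin of simple epithelia, went from 1821 and 1832 CPM to 2470.2 and 2330.3 CPM. KRT5, the basal partner of KRT14, fell slightly, from 1213 and 1242 CPM to 1062 and 1021 CPM, so that KRT14 and KRT5 moved in opposite directions. KRT86, a hair keratin close in sequence to KRT81, rose too, and the counts of such a pair are uncertain. Desmosomes were mixed, with 2 of 11 components rising and 3 falling, as PKP3 fell to 0.647 of control and JUP, which encodes plakoglobin, rose 1.4-fold. Tight junction genes rose in 6 of 19 (31.6%, against 24.8% of all genes tested) and fell in 1 (5.26%, against 23.3%). Among those that rose, CLDN4 went from 165 and 183 CPM to 443 and 424 CPM, and TJP3 from 9.06 and 8.31 CPM to 34.7 and 33.6 CPM.

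Transcription factors of the squamous lineage rose in 6 of 15 members and fell in 1. OVOL1, a repressor active in differentiating epithelium, had 1.7 and 2.91 CPM in the controls and 8.05 and 9.54 CPM in the knockdowns (log2 1.92, SE 0.30; edgeR adjusted p = 7.89e-06). TP63, the master regulator of stratified epithelium, rose 1.29-fold. SOX15 fell from 191 and 190.0 CPM to 127 and 119.7 CPM.

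Genes of the basement membrane and of the hemidesmosome that anchors to it rose in 12 of 19 and fell in 6. LAMB3, a chain of the laminin of epithelial anchoring, went from 195 and 188 CPM to 329.8 and 312 CPM. LAMB1 and LAMB2 rose 1.58-fold and 1.65-fold. PLEC encodes plectin, which ties keratin filaments to the hemidesmosome. It had 2808 and 2896 CPM in the controls and 1216 and 1096 CPM in the knockdowns, 0.405 of control (log2 SE 0.05; edgeR adjusted p = 3.31e-17). LAMA5 fell to 0.759 of control. Integrins rose in 6 of 12 and fell in 1, with ITGB5 going from 129 and 125 CPM to 213 and 209 CPM and ITGA5, of the fibronectin receptor, from 36.8 and 38.8 CPM to 69.9 and 62.4 CPM. Collagens outside the basement membrane rose in 6 of 12 and fell in 1, mostly at low counts, and 3 rose with DESeq2.

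Protease inhibitors rose in 11 of 20 members and fell in 2, and 6 rose with DESeq2. SERPINB1, an inhibitor of neutrophil proteases, went from 31.4 and 29.7 CPM to 63.8 and 64.4 CPM and SLPI from 1.42 and 1.17 CPM to 5.51 and 6.63 CPM. SLPI could pass the filter on low counts only through the knockdowns, so its rise is a description. In the plasminogen system, which cuts fibrin and matrix, 5 of 8 genes rose and 2 fell. LRP1, the receptor that clears protease-inhibitor complexes, went from 68 and 67 CPM to 169 and 164 CPM. PLAT, an activator, rose 1.76-fold, and the plasminogen-binding pair S100A10 and ANXA2 fell to 0.766 and 0.869 of control. Kallikreins and membrane serine proteases rose in 7 of 13 and fell in 2, and 4 rose with DESeq2. Semaphorins with their plexin and neuropilin receptors, guidance cues of migrating cells, rose in 13 of 23 and fell in 2. SEMA6B and SEMA4B went from 102 and 105 CPM to 209.5 and 196 CPM and from 56.8 and 61.1 CPM to 118 and 118 CPM. The 13 rises became 8 without the first knockdown library.

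Of 24 tested actin, tropomyosin, filamin and myosin genes 13 fell and 5 rose. ACTB, cytoplasmic actin, went from 7230.5 and 7504 CPM to 5575 and 5320.0 CPM, 0.739 of control (log2 SE 0.05). MYH9, the main non-muscle myosin, went from 2609 and 2682 CPM to 2094 and 1993 CPM, whereas its relative MYH14 rose from 4.96 and 6.85 CPM to 28.2 and 24.1 CPM. FLNA, which crosslinks actin filaments, fell to 0.801 of control. Tubulins fell in 6 of 18 and rose in 3. TUBB4B went from 1172 and 1260.0 CPM to 568 and 533 CPM and TUBA1C from 926 and 999 CPM to 484 and 426 CPM, while TUBA1A rose from 9.06 and 10.2 CPM to 19.8 and 20.2 CPM. Actins and tubulins are families of close paralogs with pseudogenes, so the split of their counts is uncertain.

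Among secreted signals, interleukins and their receptors rose in 19 of 35 tested members and fell in 3 (median log2 fold change 0.62). IL1B had 4.67 and 4.95 CPM in the controls and 46.2 and 41.2 CPM in the knockdowns, and IL1A had 9.2 and 7.29 CPM against 40.2 and 47.1 CPM. Both are ligands of the interleukin-1 receptor and rose, 9.06-fold and 5.27-fold (log2 SE 0.17 and 0.16). IL1RN, the natural antagonist of that receptor, also rose 3.46-fold, a call that DESeq2 did not make (adjusted p = 0.172). IL15RA, which presents interleukin-15, went from 3.26 and 2.04 CPM to 16.2 and 14.2 CPM, and OSMR, the oncostatin M receptor, from 165 and 170.2 CPM to 233 and 252 CPM. IL7R went the other way, from 22.2 and 23.3 CPM to 7.75 and 8.73 CPM, as did the cytokine LIF, from 59.3 and 51.7 CPM to 35.5 and 36.9 CPM. Many members were low, and the 19 rises became 10 with DESeq2 and 12 without the first knockdown library. Complement genes rose in 8 of 12 and fell in 1. C3, the central component, went from 5.38 and 5.97 CPM to 27.3 and 25.2 CPM, and the initiating proteases C1S and C1R from 0.991 and 1.17 CPM to 12.5 and 15.7 CPM and from 0.991 and 0.729 CPM to 5.51 and 5.5 CPM. C1S and C1R could pass the filter on low counts only through the knockdowns, so their rises are a description. Suppressors of cytokine signalling, STATs and Janus kinases rose in 8 of 19 with 0 falling, among them SOCS3, which went from 18.6 and 15.2 CPM to 38.6 and 39.3 CPM. CD274, which encodes the checkpoint ligand PD-L1, fell from 62.3 and 58.1 CPM to 32.8 and 37.8 CPM.

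Immediate early genes, which respond within minutes to growth factors and stress, rose in 14 of 23 members and fell in 4. CCN1 went from 941 and 949 CPM to 1738 and 1696 CPM, 1.82-fold higher (log2 SE 0.05; edgeR adjusted p = 3.21e-14). ATF3, a transcription factor of the stress response, went from 35 and 30.5 CPM to 96.4 and 101 CPM. FOSL1, the AP-1 subunit FRA1, fell from 335 and 346 CPM to 146 and 132 CPM, and CCN2 fell from 25.3 and 26.5 CPM to 11 and 9.22 CPM. CCN1 and CCN2 are both known targets of YAP and moved in opposite directions. Of the wider YAP and TEAD list 6 of 24 rose and 5 fell. ERK feedback genes rose in 7 of 18 and fell in 3, with the transcription factor ETV5 rising from 10.1 and 8.45 CPM to 41 and 43.8 CPM and the phosphatase DUSP7 falling from 77.9 and 86.6 CPM to 44 and 43.3 CPM. EGFR, the epidermal growth factor receptor, rose from 429 and 427 CPM to 606 and 620.1 CPM, and its ligand TGFA fell to 0.773 of control.

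In the TGF-beta and BMP pathway 12 of 33 genes rose and 1 fell. LTBP4 and LTBP3, which hold latent TGF-beta in the matrix, went from 35.5 and 35.3 CPM to 96.4 and 93.5 CPM and from 61.6 and 72.3 CPM to 140.2 and 141 CPM. SMAD3, a signal transducer, rose 1.38-fold, and ID3, a target of BMP signalling, fell to 0.631 of control. In the WNT pathway 13 of 32 genes rose and 4 fell. DKK1 fell, as given above, whereas its relative DKK3 rose from 67.4 and 69.2 CPM to 115 and 113 CPM. The ligand WNT4 went from 0.708 and 0.729 CPM to 8.05 and 6.47 CPM, and the co-receptor LRP5 rose 1.43-fold. WNT4 could pass the filter on low counts only through the knockdowns, so its rise is a description. The 13 rises became 7 with DESeq2 and 8 without the first control library. Nuclear receptors rose in 12 of 24 and fell in 2. NR1D1, the clock repressor REV-ERB alpha, went from 5.38 and 5.83 CPM to 19.97 and 18.6 CPM, and PPARA, a regulator of fatty acid oxidation, from 17.7 and 13.4 CPM to 32.8 and 40.1 CPM. The clock output gene DBP rose 2.66-fold and PER1 2.2-fold, while PER2 fell to 0.659 of control.

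Growth control genes were divided. In a list of p53 targets 12 of 29 rose and 10 fell. BBC3, the apoptosis inducer PUMA, went from 5.95 and 5.83 CPM to 21.2 and 22.2 CPM and BTG2 from 3.4 and 4.37 CPM to 12.8 and 14.4 CPM, while PLK2 fell from 289 and 279.9 CPM to 168 and 165 CPM. Cyclins of the G1 phase and their regulators fell in 10 of 25 and rose in 4. CCND1, cyclin D1, went from 698 and 689 CPM to 384 and 388 CPM, 0.556 of control (log2 SE 0.05; edgeR adjusted p = 3.51e-13). CCNE2 went from 26.9 and 22.6 CPM to 10.1 and 9.06 CPM. RBL2, the pocket protein p130 of quiescent cells, rose from 72.1 and 70.7 CPM to 126 and 130.4 CPM and its relative RBL1, p107, fell from 53.2 and 41.2 CPM to 23.2 and 24.9 CPM. Forkhead factors rose in 8 of 20 and fell in 2, and FOXO1, which acts when insulin signalling is low, went from 3.96 and 4.08 CPM to 14.8 and 16 CPM.

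The genes closest to KDM2A by domain were examined as a list of CXXC proteins and DNA methylation enzymes, of which 5 of 19 rose and 6 fell, KDM2A included. KDM2B, the paralog of KDM2A, was not called (log2 fold change -0.15, SE 0.11), but was called lower in the edgeR fit corrected for transcript G+C (-0.26, adjusted p = 0.0233). Among the TET dioxygenases, which oxidise methylcytosine, TET3 went from 96 and 98.4 CPM to 65.4 and 64.7 CPM and TET2 fell to 0.521 of control, whereas TET1 rose 1.72-fold. Of the DNA methyltransferases DNMT1, which maintains methylation, fell from 431 and 459 CPM to 351 and 349 CPM, and DNMT3A, which sets new methylation, rose 1.5-fold. The rises of TET1 and DNMT3A were not called by DESeq2 (adjusted p = 0.209 and 0.173). TDG, which excises oxidised methylcytosine, fell from 40.4 and 40.1 CPM to 20.3 and 19.6 CPM. FBXL19, another CXXC protein with an F-box, rose 1.32-fold.

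Polycomb genes were mixed, with 9 of 35 rising and 7 falling, and leaving out the second control or the second knockdown library gave 7 rises and 8 falls. Within them the core subunits RNF2, EED and SUZ12 fell, to 0.431, 0.595 and 0.684 of control, and RNF2 went from 32.7 and 35.4 CPM to 13.4 and 16 CPM. EZH1 rose from 20.1 and 23.8 CPM to 41.4 and 42.4 CPM, while EZH2 was not called (log2 fold change -0.24, edgeR adjusted p = 0.0572). EZH2 was called lower with RLE scaling (edgeR adjusted p = 0.04998) and without the second control (-0.32, edgeR adjusted p = 0.0415), and without the first knockdown SUZ12 was not called. BCORL1, of a variant polycomb complex, went from 8.35 and 8.45 CPM to 32.8 and 32 CPM. All 10 tested histone variant genes were called, 6 lower and 4 higher. H2AX, which is phosphorylated at DNA breaks, fell from 457 and 485 CPM to 218 and 207 CPM, and H3-3B, of the H3.3 variant, from 398 and 399.7 CPM to 228 and 231 CPM. H1-10, a linker histone, rose from 197 and 199.6 CPM to 340.1 and 326 CPM. Histone deacetylase HDAC5 rose from 16.7 and 18.1 CPM to 54.8 and 49 CPM. The C2H2 zinc finger genes named ZNF, many of them KRAB repressors, rose in 55 of 332 members (16.6%, against 24.8% of all genes tested) and fell in 86 (25.9%, against 23.3%), or in 29 and 39 with DESeq2.

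Potassium channel genes rose in 10 of 17 members and 0 fell, and 6 rose with DESeq2. KCNN4, a calcium-activated channel, went from 69.95 and 67.6 CPM to 90.2 and 92.5 CPM and KCNK6, a leak channel, from 6.66 and 8.31 CPM to 14.5 and 17 CPM. ABC transporters rose in 9 of 25 and fell in 4. ABCA2 and ABCC3, which carry lipids and organic anions, went from 61.3 and 64.1 CPM to 157 and 139 CPM and from 20.7 and 19.8 CPM to 63.8 and 56.4 CPM. ABCE1 and ABCF1, members of the family that are no transporters but act in translation, fell to 0.573 and 0.704 of control.

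**Figure D4:**
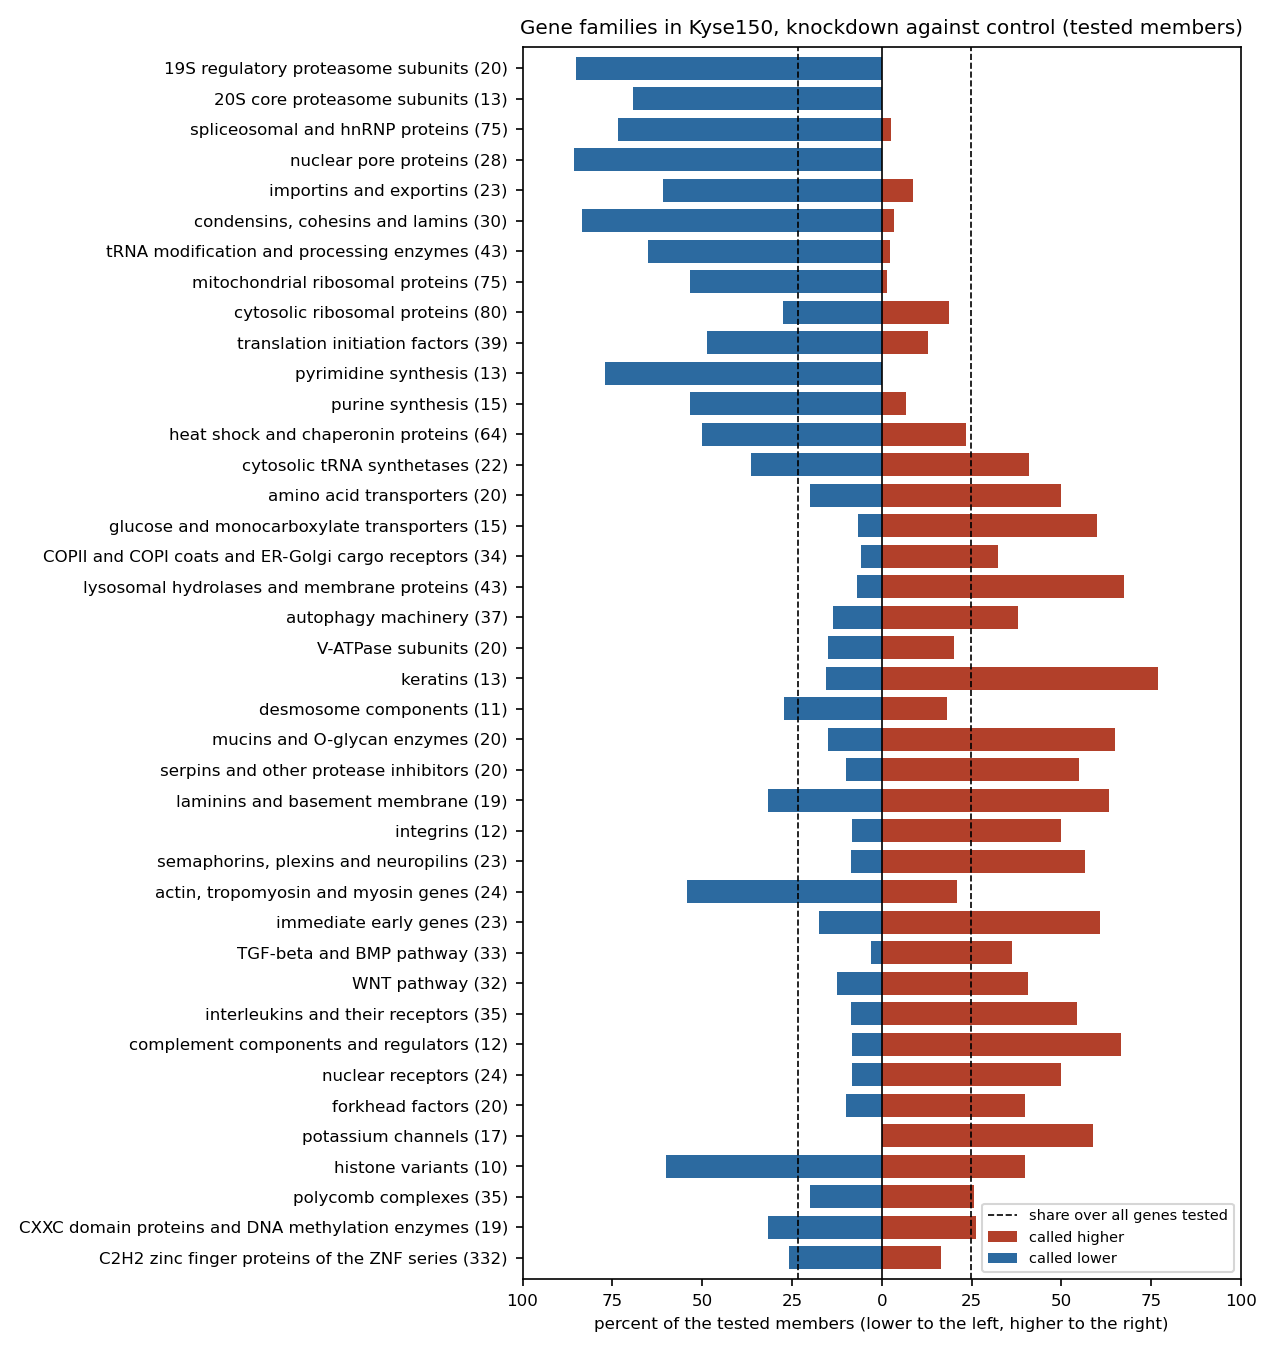
Percent of the tested members of 40 gene families called higher (red, to the right) or lower (blue, to the left) in the knockdowns, with the number tested in brackets and dashed lines at the shares over all genes tested, 24.8% and 23.3%. Nuclear pore, 19S proteasome and condensin families reach past 80% lower, while keratins, lysosomal genes and complement reach past 65% higher. The complement share includes C1S and C1R, which could pass the filter on low counts only through the knockdowns.

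Calls differed by the level of a gene. The share called lower rose with the mean level, from 5.50% of the 854 genes under 2 CPM through 18.4% of the 3509 genes from 10 to 30 CPM to 48.0% of the 475 genes at 300 CPM or more. The share called higher stayed between 22.5% and 25.6% in all 7 bands. With DESeq2 the share called higher was 7.61% in the lowest band and 21.5% in the highest. With edgeR and a library left out it was 11.5% to 16.1% in the lowest band and 18.7% to 24.2% in the highest. In the lowest band the 5.50% called lower was 2.23% to 3.21% with a library left out, and 0.820% with DESeq2. The 213 rises there were 96 and 98 without the first and the second knockdown, 130 and 122 without the first and the second control, and 65 with DESeq2. A gene in the lowest bands could pass the filter through the knockdowns alone, so the 213 rises against 47 falls under 2 CPM are a description. At 300 CPM or more 118 genes rose and 228 fell.

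By type, 17.7% of 1872 long noncoding RNAs rose and 13.4% fell, and 14.5% of 565 pseudogenes rose and 12.4% fell, against 26.8% and 25.8% of 11248 protein-coding genes. No source used here gives the strand setting of the counts, so the antisense genes among the noncoding RNAs cannot be told from their partners. Of the 1872 noncoding RNAs 1366 were annotated as antisense. Of the 316 annotated as long intergenic, 22.2% rose and 12.7% fell. Host genes of small nucleolar RNAs fell in 9 of 27 and rose in 4. SNHG7 went from 102 and 97.3 CPM to 55 and 49.5 CPM and SNHG1 from 131 and 131 CPM to 72.6 and 85.9 CPM, while GAS5 rose 1.23-fold. By chromosome, protein-coding genes rose most often on chromosomes 22 (36.1% of 280 higher, 16.4% lower) and 19 (33.7% of 803 higher, 22.8% lower), and least often on chromosome 18 (16.5% of 158 higher, 18.99% lower). Chromosome 5 had the highest share of falls among the autosomes (33.3% of 496 lower, 22.6% higher). Transcript G+C, which moved with the fold change as given below, was not held fixed in these shares, and its part in them was not tested.

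The G+C content of the transcript moved with the fold change. With protein-coding genes ranked by G+C and cut into 5 groups of equal size, from the lowest to the highest group the median log2 fold change went from -0.18 to 0.20, the share called higher from 11.2% to 41.0% and the share called lower from 34.98% to 18.2%. Replicates of a group also differed with G+C, in opposite senses: the median log2 difference of the second control from the first went from -0.11 to 0.06 over the 5 groups, and that of the second knockdown from the first from 0.11 to -0.08. In a fit corrected for G+C, added after seeing the data, 3584 genes rose and 3490 fell, and 89.6% of the calls given above were kept, all with the same sign. In that fit 18 of 20 genes of the 19S proteasome and 55 of 75 splicing genes fell, and 29 of 43 lysosomal genes rose. Other families were less stable, and the medians of 37 of 98 families were classed as moved. The more frequent direction changed in 2 families, the H3K4 and H3K9 methyltransferases and the histone deacetylases and sirtuins. Of the 539 genes that could be named, 13 lost their call in that fit and 57 with DESeq2.

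**Figure D5:**
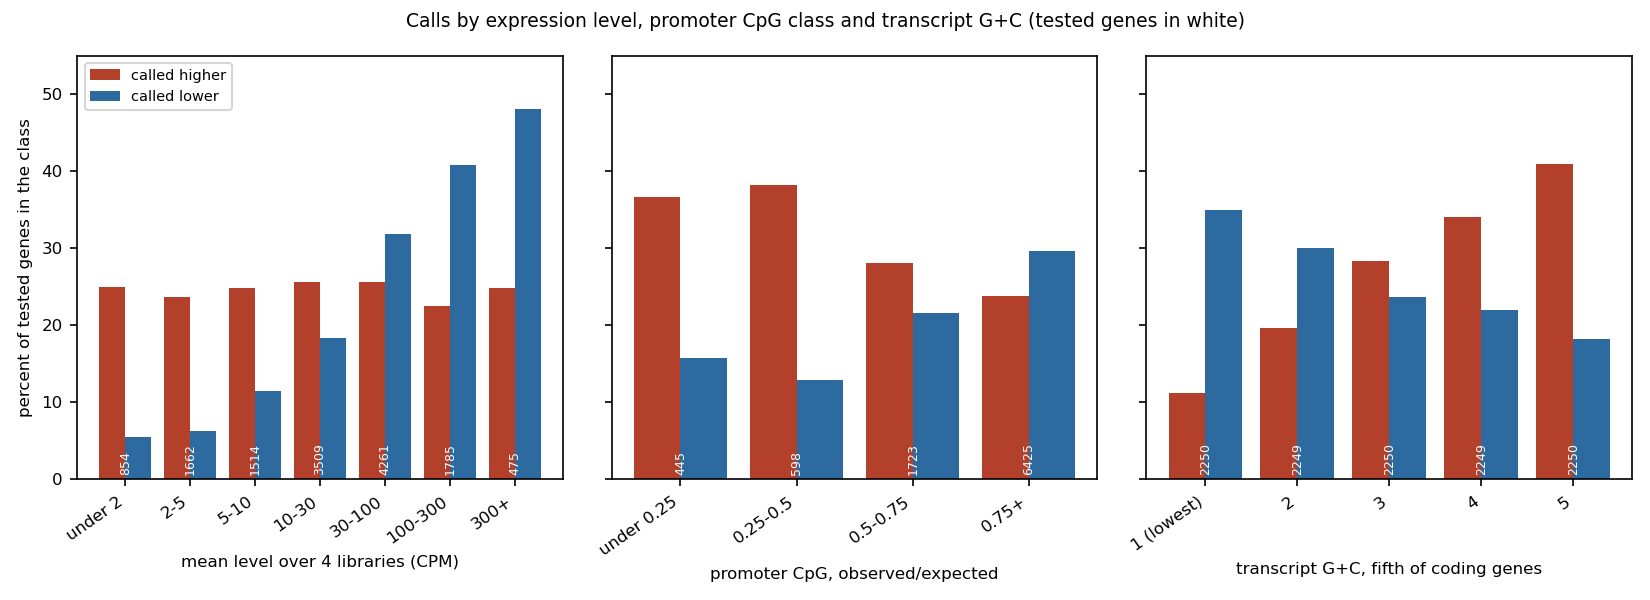
Percent of tested genes called higher (red) or lower (blue) by mean level in CPM (left), by observed-to-expected CpG ratio of the promoter window (middle) and by 5 equal groups of transcript G+C (right), with the number of genes tested in white at the foot of each pair. Falls grow with level from 5.50% to 48.0%, rises are 36.6% and 38.1% in the 2 lowest classes of promoter CpG and 23.8% in the highest, and rises grow with transcript G+C from 11.2% to 41.0%.

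Of the genes tested, 5 had 0 counts in both controls, while 0 genes tested had 0 counts in both knockdowns. These 5 could pass the filter on low counts only through the knockdowns, where they are high. The direction of their calls was thus fixed by the filter, and the values are a description. HBB, beta globin, had 51 and 65 counts in the knockdowns, at least 41.8-fold higher when the controls are set to 3 counts over the group. SH2D3C had 18 and 16 counts (at least 12.2-fold). LINC01219 had 12 and 15 counts (at least 9.72-fold), NPIPB6 11 and 10 (at least 7.56-fold) and NALT1 10 and 11 (at least 7.56-fold). NPIPB6 belongs to a family of near-identical copies and NALT1 is an antisense gene, so both are uncertain. These genes were named after their values were seen.

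Markers of other cell types were checked against the label of an esophageal squamous line. All 16 squamous markers were tested, with a summed level of 3294 to 3423 CPM in the controls and 3467 to 3550 CPM in the knockdowns. Of 14 fibroblast markers 4 were tested, and COL1A2, COL5A1, DCN, FAP and PDGFRA were at 0 in all 4 libraries, so the summed 29.5 to 33.1 CPM in the controls and 57.3 to 68.4 CPM in the knockdowns came mainly from MMP2, at 21 and 22.4 CPM and 49.8 and 40.8 CPM. Of 13 leukocyte markers 1 was tested, and PTPRC, CD3D, CD4, CD8A, MS4A1 and LYZ were at 0 throughout. The list summed to 2.77 to 3.40 CPM in the controls and 5.34 to 5.37 CPM in the knockdowns, beside the rises of interleukin and complement genes. That sum rose mainly through the tested marker, CSF1R, at 1.13 and 1.31 CPM in the controls and 3.73 and 3.07 CPM in the knockdowns. CSF1R could pass the filter on low counts only through the knockdowns, so its rise is a description. Of 8 endothelial markers 2 were tested, with KDR, TEK and EMCN at 0 and a summed 16.3 to 20.98 CPM in the controls against 39.9 to 40.3 CPM, mainly from EGFL7. The part of these markers in other results was not tested. The columnar epithelial markers, led by KRT8 and KRT18, summed to 6453 to 6542 CPM in the controls and 7262 to 7826 CPM in the knockdowns, with CDX2, HNF4A, KRT20 and TFF3 at 0. Mitochondrial genes took 5.56% and 5.65% of the gene counts in the controls, against 6.75% and 6.64% in the knockdowns, while 8 of the 13 protein-coding genes of the mitochondrial genome fell and 4 rose. In the fit without mitochondrial genes 3467 genes rose and 3277 fell. It kept 99.5% of the calls given above, all with the same sign. Any other part of the shift in the mitochondrial share was not tested.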

How the data were processed

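The deposited table holds raw counts of reads per gene by Ensembl ID, and per the submitters' processing notes bcl2fastq 2.19, HISAT2 2.1.0, HTSeq 0.9.1 and DESeq2 were used. They list GRCh37.p13 and GRCh38.p13 with no role, and no source used here gives the build or the strand setting behind this table. Per the labels' protocols RNA was selected with oligo(dT) beads and sequenced as 150 bp paired-end reads. Rows of the counter's own summary, which took 57.8% to 58.2% of all counted reads per library (43.7% to 44.5% had no feature), were left out of library sizes and tests.

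Symbols came from GENCODE 29 and a table of current names and matched 52338 of 57820 genes (90.5%). Of the listed family members 8 were absent by symbol. The members, families and motifs were chosen with earlier results of these data known. Genes passing filterByExpr (minimum count 10, minimum total 15) were fitted in edgeR 4.0.16 (R 4.3.3) with TMM scaling and the robust quasi-likelihood test, 2 controls against 2 knockdowns with 2 residual degrees of freedom. The fit draws the spread of each gene toward a trend over all genes tested, and the small p-values lean on that pooling. P-values were Benjamini-Hochberg adjusted over all 14060 genes tested, and a gene was called at an adjusted p under 0.05. Fold changes are fitted values and depend on the prior count where counts are low. Genes that could pass the filter only with the knockdowns, such as C1S, C1R, WNT4, ADSS1, SLPI, MUC1 and CSF1R, remain in the counts of their families. CPM were computed from the counts over the TMM-scaled library sizes. Where genes are grouped by mean CPM, the level is not corrected for gene length.

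Genes named in the text are KDM2A, the 12 largest rises and the 12 largest falls among called genes with a current symbol, a mean of at least 10 CPM and groups that do not overlap. In each family the 4 members with the smallest p in its more frequent direction and up to 2 in the other could be named. A further 27 genes were named after their values were seen, mostly because a sequence match, a paralog or a partner of a named gene drew attention to them, among them KDM2B, EZH2, TET1, TET2, DNMT3A, EED, SUZ12, IL1RN, AIMP1 and KRT86. Families were described by counts and medians, without a set test and without holding the level of their members fixed.

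Promoter windows (RefSeq, GRCh38.p14) covered 250 bases before to 50 after the first listed start of a gene, and 9191 of 11248 tested protein-coding genes had one (81.7%). In 78.3% of windows the transcribed part was found in a GENCODE transcript of the gene. The letters of 7 motifs were searched on both strands, and all 7 are given in the text. Transcript G+C was available for 97.5% of the genes tested, and the correction for it used loess offsets with a span of 0.3. Replicate numbers were not taken to pair the libraries. Alternatives were other scalings and filters, DESeq2 1.42.0, the replicate number as a block and leaving out each library. The other 5 columns of per-sample values, from TE11, were not used.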

Additional observations from a re-analysis of the deposited data

How the results depend on the processing

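DESeq2 called 2156 genes higher and 2181 lower, against 3490 and 3281 with edgeR, and its calls were 64.0% of those of edgeR, all with the same sign. The cause was not tested. Leaving out a library in turn gave 2757 to 2965 genes higher and 2652 to 2962 lower, and the lone library was then assumed to vary like the other group. The share called higher in the class with the lowest promoter CpG content, 36.6%, was 30.8% with genes split into 3 equal groups by CpG ratio, 22.9% with DESeq2 and 28.9% to 32.1% with a library left out. With the replicate number as a block 3301 genes were called higher and 3094 lower. Deviations of same-numbered libraries correlated at -0.08, so the numbers were not taken to pair the libraries. Scaling by RLE or upper quartile, no filter, a filter of 1 CPM, leaving out mitochondrial genes and correcting for transcript G+C gave 3370 to 3736 genes higher and 3045 to 3490 lower. The knockdown of KDM2A held in every one of these settings. SLC38A1, which was not called, changed sign with upper-quartile scaling (log2 0.0135) and with G+C correction (0.101), and lay between -0.0702 and 0.0341 with a library left out. At 6052883 to 7167055 gene counts, changes in genes of a few CPM were detectable mainly when large.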
